A study of Mus musculus with 16 samples.

Results

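A set of 8 genes of the CCN growth factor family and of its YAP-TEAD regulators were followed in the left atrium (LA) of aged female mice, out of 24972 gene rows in the expression table. They were 5 CCN genes, Cyr61 (CCN1), Ctgf (CCN2), Nov (CCN3), Wisp1 (CCN4) and Wisp2 (CCN5), and 3 regulators, Yap1, Wwtr1 (which encodes TAZ) and Tead1. The 8 genes were chosen by name, with their values already known in AngII against control, Ovx + AngII against Ovx and Ovx against control, so their values in those comparisons are given as a description. No p-value is printed for them there, and counts of members past the thresholds only describe where they fell. All 8 passed the filter on low values, a mean of at least 10 over the 16 libraries, as did 14261 genes in all. Wisp3, the remaining family member, was listed above 0 in only 5 libraries, with a highest value of 2.87, and was not followed.

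The mice were C57BL6/J females aged 24 months, in 4 groups with 4 libraries each. Control mice (Ctrl) kept their ovaries and received no infusion. AngII mice also kept their ovaries and were infused with angiotensin II for 4 weeks from a minipump under the skin. Ovx mice had been ovariectomized at 12 months of age and received no infusion, and Ovx + AngII mice had both the ovariectomy and the infusion. According to the study, sham surgery was done without a vehicle-filled minipump. An effect of AngII therefore cannot be told apart from one of carrying the pump. RNA came from the whole LA, so cardiomyocytes, fibroblasts, vessels and blood contributed to each value and a change in the number of cells of a type cannot be told apart from a change in RNA per cell. Nothing in the labels states that the libraries of a group came from separate mice, and p-values measure only the spread between these samples.

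CCN proteins are secreted into the matrix around cells, where they bind integrins, LRP co-receptors and proteoglycans and alter how cells respond to other growth factors. Ctgf and Cyr61 are textbook targets of YAP and TAZ, a pair of coactivators that have no DNA-binding domain and act on genes through the TEAD factors. The Hippo kinases phosphorylate YAP and TAZ and keep them out of the nucleus, and stretch or a stiff matrix lets them enter it. In the heart, Ctgf is widely used as a marker of fibrosis, and it also responds to TGF-beta and to angiotensin II. Wisp2 differs from its relatives in that it lacks the C-terminal domain.

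The normalised read counts of a library summed to 17598222 to 21513796. Ctrl replicate 4 stood apart: its mean correlation with the other libraries of its group was 0.945, against 0.963 to 0.980 for the other 15 libraries, and the heading row of the expression table places the AngII heading above its column although its own label says control. It was kept as a control, as labelled, and several fold changes that rest on it are given with and without it. Ctrl replicate 4 and AngII replicate 4 held the most haemoglobin transcripts, 0.970% and 1.46% of their totals, and the other libraries at most 0.349%. The table also carried 2 scales, with the values of Ctrl and AngII libraries higher by a ratio of 1.12 than those of the Ovx and Ovx + AngII libraries. This shift cancels in the AngII comparisons within mice with or without ovaries, and values rescaled by median of ratios are used wherever Ovx mice were compared with mice that kept their ovaries. The tissue label fitted most of the markers: the atrial myosin light chain Myl7 had a mean of 88093, whereas the ventricular Myl2 had 7.47, Irx4 0.065 and Hand1 0. The remaining ventricular marker, Myl3, was present, at a mean of 871.

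Set against the length of their merged exons, Ctgf was by far the most abundant of the 8 transcripts. In controls its level was 5261 ± 2604 normalised counts per kilobase (SD, n = 4). Wwtr1 followed with 540.1 ± 84.4, Tead1 with 505 ± 40.9, Cyr61 with 420.0 ± 214 and Yap1 with 335 ± 20.4 counts per kilobase, and these 4 neighbours were close enough that 1 SD around the mean of Cyr61 covered the other 3 means. Wisp2 had 221 ± 91.4, Wisp1 117 ± 22.1 and Nov 46.2 ± 14.1 counts per kilobase. With AngII, Wisp2 stood second at 934 ± 268 counts per kilobase, above Wwtr1 at 644 ± 50.04, and in Ovx + AngII mice it had 699 ± 142 beside 629.8 ± 49.8 for Wwtr1. In the RefSeq annotation of GRCm38.p6, the patch release of mm10, Ctgf lies on chromosome 10 from 24595442 to 24598683 and Wisp2 on chromosome 2 from 163820752 to 163833146. Cyr61 lies on chromosome 3 from 145646971 to 145649985, Nov and Wisp1 on chromosome 15 from 54745910 to 54753762 and from 66891369 to 66923201, Yap1 on chromosome 9 from 7931999 to 8004638, Wwtr1 on chromosome 3 from 57455644 to 57575910 and Tead1 on chromosome 7 from 112679356 to 112906784.

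Promoter sequence from RefSeq (GRCm38.p6) was matched for 3 of the 8 genes, Cyr61, Wwtr1 and Yap1, and is shown because TEAD factors are the DNA-binding partners of the YAP and TAZ products studied here. Ctgf, Nov, Wisp1, Wisp2 and Tead1 had no match. Each sequence is the 250 bases before a start given in the RefSeq promoter entries, written 5′ to 3′ on the strand of the gene, which is the minus strand for all 3, at chr3:145649986-145650235 for Cyr61, chr3:57575911-57576160 for Wwtr1 and chr9:8004597-8004846 for Yap1. For Yap1 that start lies inside the gene bounds given above, so the window overlaps the 5′ end of the gene. Wwtr1 has another entry, at chr3:57575877-57576126, which is not printed. Capitals mark the TEAD motif GGAATG, searched on both strands.
Cyr61: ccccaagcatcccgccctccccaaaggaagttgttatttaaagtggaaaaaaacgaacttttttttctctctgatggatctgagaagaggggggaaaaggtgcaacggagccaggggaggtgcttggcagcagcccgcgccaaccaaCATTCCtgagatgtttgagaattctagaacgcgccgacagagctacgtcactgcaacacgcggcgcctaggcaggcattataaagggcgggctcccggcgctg
Wwtr1: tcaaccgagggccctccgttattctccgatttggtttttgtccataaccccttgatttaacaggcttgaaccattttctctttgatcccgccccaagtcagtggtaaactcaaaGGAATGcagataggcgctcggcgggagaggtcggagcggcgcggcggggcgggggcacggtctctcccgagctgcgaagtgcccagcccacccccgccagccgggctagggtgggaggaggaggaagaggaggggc
Yap1: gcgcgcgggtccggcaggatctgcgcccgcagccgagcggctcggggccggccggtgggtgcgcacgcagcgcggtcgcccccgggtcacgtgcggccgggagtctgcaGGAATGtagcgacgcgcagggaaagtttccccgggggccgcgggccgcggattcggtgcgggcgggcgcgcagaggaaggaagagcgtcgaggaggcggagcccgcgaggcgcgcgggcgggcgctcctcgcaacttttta
Each of the 3 held 1 match, which began 103, 136 and 141 bases before the start of Cyr61, Wwtr1 and Yap1. In the other Wwtr1 entry the same match began 170 bases before the start. The motif was present in 12.6% of the 32851 promoter windows of the same length. The AP-1 motif TGANTCA, also searched on both strands, was in 6.75% of these windows and in none of the 3 sequences. The Cyr61 match reads CATTCC here because it lies on the opposite strand. A match of letters is a description of the sequence and does not show that a factor binds there.

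**Figure D1:**
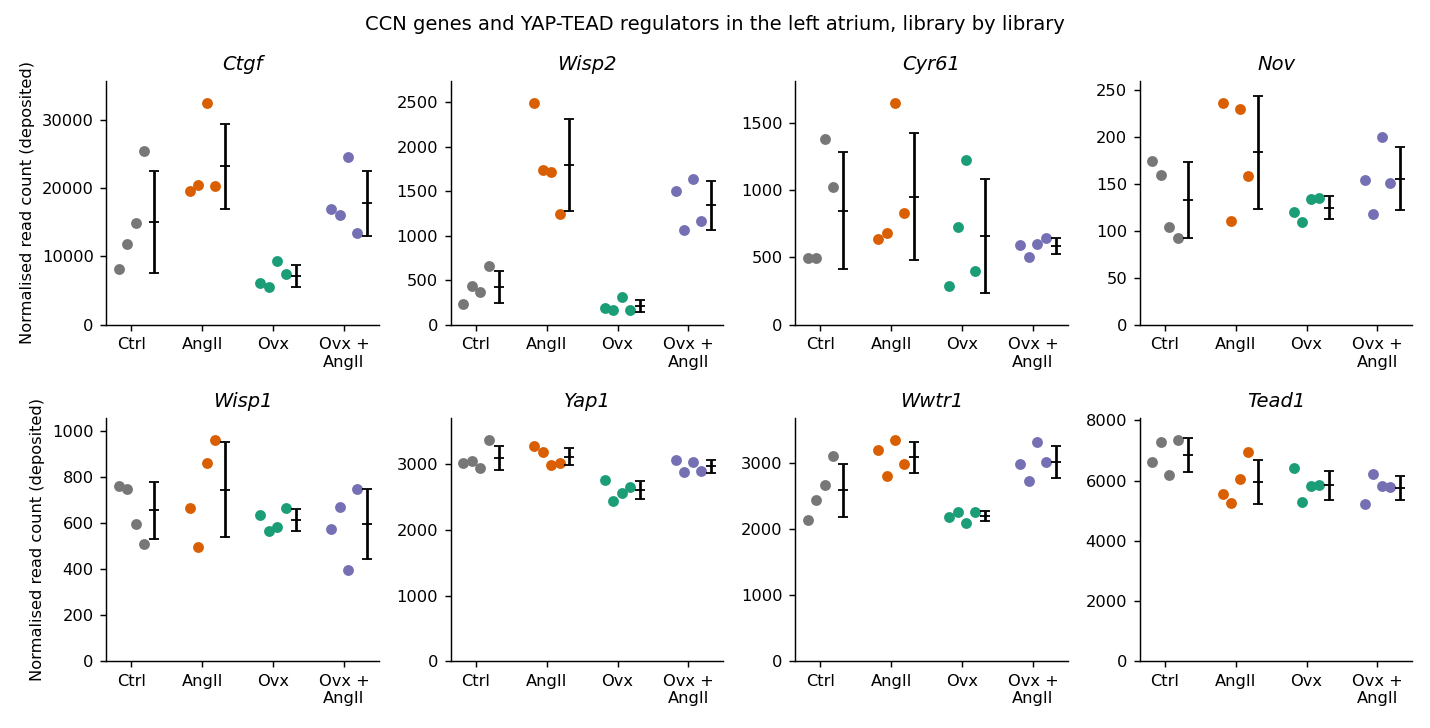
Deposited normalised read count of each of the 8 genes (y axis, linear from 0) in the 4 libraries of each group (points, replicates 1 to 4 from left to right), with the group mean and SD (bar). Wisp2 separates the AngII groups from the others, Ctgf separates them only in ovariectomized mice, and Cyr61 spreads widely within 3 of the 4 groups.

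The first comparison asked how the CCN genes of the LA responded to AngII in mice with ovaries. Wisp2 showed the largest difference of the 8 genes. Its normalised read count was 235, 439, 369 and 655 in Ctrl replicates 1 to 4 and 2492, 1740, 1713 and 1246 in AngII replicates 1 to 4. Every AngII library was higher than every control, and the nearest pair, AngII replicate 4 and Ctrl replicate 4, was still well apart. The means were 425 ± 176 and 1797 ± 515 (SD, n = 4). Wisp2 was 4.38-fold higher with AngII, with a log2 fold change of 2.13 ± 0.28 (SE). Without Ctrl replicate 4 it was 2.37 ± 0.26, and over the 16 fits with a library left out it ran from 1.88 to 2.37.

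Ctgf, the most abundant of the family, was less clearly separated in mice with ovaries. Its normalised read count was 8093, 11840, 14841 and 25428 in the controls and 19503, 20510, 32423 and 20293 with AngII. Ctrl replicate 4 was higher than 3 of the 4 AngII libraries, while the other controls were lower than all of them. The means of 15050 ± 7449 and 23182 ± 6176 gave a log2 fold change of 0.72 ± 0.28, or 1.64-fold. Without Ctrl replicate 4 the control mean was 11591 ± 3381 (n = 3), the groups no longer overlapped, and the log2 fold change was 1.01 ± 0.24, or 2.01-fold. That fit was the highest of the 16 with a library left out, over which the log2 fold change ran from 0.46 to 1.01.

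The other CCN genes had overlapping groups. Cyr61, like Ctgf a target of YAP and TAZ, had normalised counts of 499, 493, 1378 and 1022 in the control libraries and of 639, 684, 1645 and 833 in the AngII libraries. The highest library was 2.79 times the lowest in controls and 2.57 times with AngII, and the log2 fold change was 0.20 ± 0.42. Nov, a family member that opposes Ctgf in several cell systems, ranged from 92.1 to 174 in controls and from 111 to 235 with AngII, with a log2 fold change of 0.45 ± 0.25. Wisp1, a target of Wnt signalling, ranged from 507 to 762 and from 496 to 959, with a log2 fold change of 0.16 ± 0.21. Nov and Wisp1 were at their lowest in Ctrl replicate 4 among the controls, where Ctgf and Wisp2 were at their highest.

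The next comparison put the same question to ovariectomized mice, in libraries that share none with the first. Wisp2 was again the largest difference, with 191, 166, 311 and 170 normalised counts in Ovx mice and 1503, 1061, 1643 and 1169 in Ovx + AngII mice. The means of 209 ± 68.6 and 1344 ± 274 gave a log2 fold change of 2.70 ± 0.28, or 6.51-fold. Ctgf had 6120, 5582, 9264 and 7381 normalised counts in Ovx mice and 16970, 16020, 24585 and 13418 in Ovx + AngII mice. All 4 Ovx + AngII libraries were above all 4 Ovx libraries for both genes. Ctgf averaged 7087 ± 1635 and 17748 ± 4799, a log2 fold change of 1.32 ± 0.28, or 2.49-fold.

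Cyr61, Nov and Wisp1 overlapped between Ovx and Ovx + AngII mice as well. Cyr61 had 285, 728, 1224 and 397 normalised counts in Ovx mice and 596, 503, 599 and 647 in Ovx + AngII mice, so that the 4 libraries with AngII lay inside the range of those without it. Its log2 fold change was 0.05 ± 0.42. The values were 0.30 ± 0.25 for Nov, with means of 124 ± 12.1 and 155 ± 33.9, and -0.07 ± 0.21 for Wisp1, with means of 612 ± 45.8 and 597.0 ± 152.

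Of the regulators, Wwtr1 showed the clearest difference. TAZ, its product, is a coactivator that partners TEAD factors as YAP does. Its normalised read count was 2140, 2432, 2657 and 3096 in controls and 3195, 2801, 3344 and 2974 with AngII, and only Ctrl replicate 4 reached into the range of the AngII group. The log2 fold change was 0.26 ± 0.09 with that library and 0.36 ± 0.08 without it. Over the 16 fits with a library left out it ran from 0.18 to 0.36. In ovariectomized mice it had 2176, 2258, 2091 and 2250 counts without AngII and 2985, 2729, 3311 and 3014 with it. These groups did not overlap, and the log2 fold change was 0.45 ± 0.09, or 1.37-fold.

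Yap1 and Tead1 differed little with AngII. Yap1 was at 3019, 3058, 2945 and 3374 normalised counts in the control libraries and 3275, 3189, 2997 and 3020 in the AngII libraries, a log2 fold change of 0.01 ± 0.06. In ovariectomized mice it had 2765, 2441, 2559 and 2663 without AngII and 3067, 2881, 3038 and 2896 with it. Those groups did not overlap, although the difference was small, at 0.19 ± 0.06 on the log2 scale, or 1.14-fold. Tead1, the DNA-binding partner, had 6609, 7276, 6194 and 7354 counts in controls and 5544, 5271, 6055 and 6947 with AngII, a log2 fold change of -0.21 ± 0.09. The groups overlapped there, as they did in ovariectomized mice, where its log2 fold change was -0.02 ± 0.09 between 5842 ± 467 and 5763 ± 400.

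A gene counted as called when its adjusted p (limma, Benjamini-Hochberg over all 14261 genes) did not exceed 0.05 and its log2 fold change reached 1 or -1. By that rule 1 of the 8 genes, Wisp2, was called higher with AngII in mice with ovaries, where 0.344% of all genes were called higher and 0.238% lower. In ovariectomized mice 2 of the 8, Ctgf and Wisp2, were called higher, beside 1.3% of all genes called higher and 1.02% lower. Groups did not overlap for 1 of the 8 genes in the first comparison, where 3.86% of all genes were higher without overlap and 3.17% lower, and for 4 of the 8 in the second, where the background was 11.6% higher and 10.2% lower. As the members were chosen with these values known, the counts are not read against the background. The median log2 fold change of the 8 genes was 0.23 in the first comparison and 0.24 in the second, beside -0.01 for all genes in each. Without Ctrl replicate 4, Ctgf was also called in the first comparison, in which 1.55% of all genes were then called. In a fit of only the 8 libraries of that comparison, Wisp2 was not called.

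**Figure D2:**
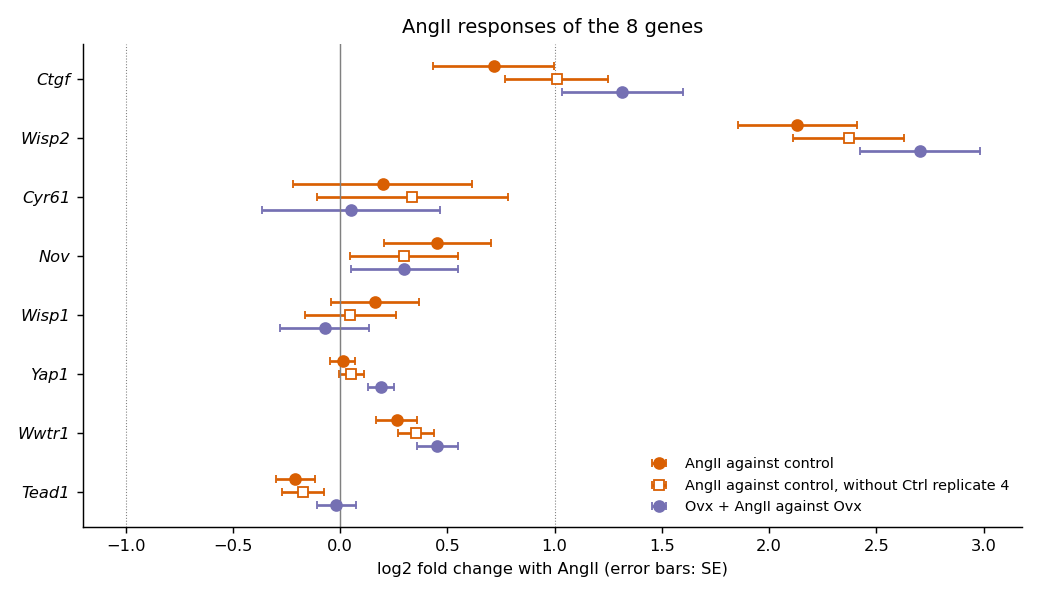
Log2 fold change with AngII (x axis, SE as bars) for the 8 genes in mice with ovaries (orange circles), in the same comparison without Ctrl replicate 4 (open squares) and in ovariectomized mice (purple circles), with dotted lines at a log2 fold change of 1 in either direction. Wisp2 lies beyond 2 in all 3 rows and Ctgf moves from 0.72 to 1.01 when Ctrl replicate 4 is left out.

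The receptors of the CCN proteins were followed as a list of 11 genes, all tested. This list and those below were chosen with earlier results of these data known. Counts and adjusted p of list genes are therefore a description. With AngII, 2 of them rose and none fell past the adjusted p in mice with ovaries, where 1.68% of all genes rose past it and 1.26% fell. In ovariectomized mice 6 of the 11 rose and none fell, beside 5.83% and 4.31% of all genes. The same shares of all genes stand beside the list and marker counts below. None reached a log2 fold change of 1 in either comparison, and the median of the list was 0.24 in mice with ovaries and 0.33 in ovariectomized mice. Itga5, the alpha subunit of the fibronectin receptor, rose in both, by 0.53 ± 0.12 (SE, limma adjusted p = 0.0312) and by 0.60 ± 0.12 (adjusted p = 0.00631) on the log2 scale. It lost the adjusted p in mice with ovaries in 5 of 16 fits with a library left out, reaching 0.105.

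The beta subunit Itgb5 had a mean of 2254 ± 210 in Ovx mice and 3932 ± 511 in Ovx + AngII mice, a rise of 0.80 ± 0.14 on the log2 scale (limma adjusted p = 0.00307). Itga6, a laminin-binding subunit through which CCN proteins attach fibroblasts, rose by 0.79 ± 0.14 (adjusted p = 0.00257), from 1826 ± 141 to 3187 ± 531. Itgav, the partner of Itgb5, rose by 0.46 ± 0.11 (adjusted p = 0.0162). In mice with ovaries the log2 fold changes of Itgb5, Itga6 and Itgav were 0.42, 0.26 and 0.12, none past the adjusted p. Without Ctrl replicate 4 they were 0.49, 0.41 and 0.25, and Itga6 alone of them passed it (limma adjusted p = 0.0378). Itga6 passed it in only 1 of 16 fits with a library left out, and its adjusted p reached 0.660. A difference between the AngII responses of mice with and without ovaries was not past the adjusted p for any gene of the lists. The smallest adjusted p there was 0.839.

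The other TEAD factors and the vestigial-like cofactors that compete with YAP for TEAD made a list of 6 genes, of which 5 were tested. Tead2 had a log2 fold change of 0.00 ± 0.15 with AngII in mice with ovaries and -0.18 ± 0.15 in ovariectomized mice. Tead3 had 0.16 ± 0.12 and 0.04 ± 0.12, and Tead4, the least abundant of the 3 at a mean of 98.6 in controls, had -0.15 ± 0.14 and -0.38 ± 0.14. Vgll3, a TEAD cofactor, was the 1 gene of the list past the adjusted p, in ovariectomized mice. Its normalised read count was 138, 138, 112 and 109 in Ovx mice and 290.2, 253, 391 and 237 in Ovx + AngII mice, with no overlap. It was called higher there, by 1.21 ± 0.25 on the log2 scale (limma adjusted p = 0.00615). In mice with ovaries its groups overlapped and its log2 fold change was 0.74 ± 0.25 (adjusted p = 0.112). Only Ctrl replicate 4, at 228, reached into the range of the AngII group. Without that library the log2 fold change was 0.93 (limma adjusted p = 0.0208). This was the 1 of 16 fits with a library left out past the adjusted p, and the log2 fold change ran from 0.54 to 0.93.

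The Hippo cascade and its regulators were followed as a list of 23 genes. Of the 23, 1 rose past the adjusted p with AngII in mice with ovaries and 4 in ovariectomized mice, none fell, and none was called. The median log2 fold change was 0.10 and 0.08, with 20 and 17 of the 23 above 0. Dchs1, a large cadherin that binds Fat4, rose by 0.41 ± 0.09 (limma adjusted p = 0.0296) and by 0.33 ± 0.09 (adjusted p = 0.0332). In ovariectomized mice Frmd6, a membrane scaffold of the cascade, rose by 0.56 ± 0.13 (adjusted p = 0.0158), Mob1b, an activator of the Lats kinases, by 0.45 ± 0.13 (adjusted p = 0.0437) and Wwc2, a scaffold protein, by 0.31 ± 0.06 (adjusted p = 0.00307). With a library left out, Dchs1 kept the adjusted p in 12 of 16 fits in mice with ovaries and in 11 of 16 in ovariectomized mice, where Mob1b kept it in 7, Frmd6 in 15 and Wwc2 in 16. The kinases Lats1 and Lats2 had log2 fold changes of 0.13 ± 0.09 and 0.25 ± 0.10 in mice with ovaries and -0.06 ± 0.09 and 0.11 ± 0.10 in ovariectomized mice, none past the adjusted p.

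A signature of 20 other YAP and TAZ target genes, all tested, gave 4 genes that rose past the adjusted p in mice with ovaries and 5 in ovariectomized mice, with none that fell. Past the adjusted p, 1.68% and 5.83% of all genes rose in these comparisons. Of the list, 2 and 3 genes were called, beside 0.344% and 1.3% of all genes called higher. The median log2 fold change of the list was 0.25 in the first comparison, with 16 of the 20 above 0, and 0.09 in the second, with 14 above 0. Ankrd1, a stretch-responsive cardiomyocyte protein that the study itself had picked out, was the largest of them. Its normalised read count was 19709, 34240, 36046 and 58218 in controls and 91275, 71097, 109629 and 60541 with AngII, and 22629, 13070, 15563 and 16316 in Ovx mice against 91724, 95351, 104581 and 88197 in Ovx + AngII mice. Neither pair of groups overlapped. The log2 fold changes were 1.23 ± 0.26 (limma adjusted p = 0.0219) and 2.52 ± 0.26 (adjusted p = 8.2e-05), and the difference between them, 1.29 ± 0.37, had an adjusted p of 0.839. The first of these lost the adjusted p in 5 of 16 fits with a library left out, reaching 0.0780.

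Fjx1, a Golgi kinase of low abundance, was called in both comparisons, with log2 fold changes of 1.01 ± 0.26 (limma adjusted p = 0.0485) and 1.13 ± 0.26 (adjusted p = 0.0119), and kept the adjusted p of the first in 1 of 16 fits with a library left out. Nt5e, the enzyme that makes adenosine outside the cell, was called in ovariectomized mice, from 475 ± 30.9 to 957 ± 120.0 normalised counts (log2 fold change 1.003 ± 0.155, adjusted p = 0.00116). Tgfb2, a ligand counted also among the TGF-beta genes, rose there by 0.88 ± 0.19 (adjusted p = 0.00915). Amotl2, Lats2 and Ptpn14 stood both in this list and in the Hippo list.

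SRF with its MRTF cofactors and contractile targets, a further arm that reads tension in the cytoskeleton, was followed as 12 genes, of which 11 were tested. Past the adjusted p, 2 rose in mice with ovaries and 4 in ovariectomized mice, none fell, and the list medians were 0.25 and 0.41. Cnn1, a calponin of smooth muscle and myofibroblasts, was at 46.6, 42.9, 169 and 28.9 normalised counts in the control libraries and 871, 463, 492 and 78.7 in the AngII libraries. It had 45.8, 24.3, 62.8 and 35.02 in Ovx mice and 574, 824, 909.9 and 713 in Ovx + AngII mice, where the groups did not overlap. AngII replicate 4 and Ctrl replicate 3 crossed in mice with ovaries. The log2 fold changes were 2.63 ± 0.60 (limma adjusted p = 0.0304) and 4.20 ± 0.60 (adjusted p = 0.000674), the first past the adjusted p in 11 of 16 fits with a library left out. Tagln, which encodes transgelin, and Myl9, a smooth muscle myosin light chain, were called in ovariectomized mice, by 1.39 ± 0.31 (adjusted p = 0.0107) and 1.12 ± 0.31 (adjusted p = 0.0299). Myl9 kept the adjusted p in 11 of 16 fits with a library left out, with log2 fold changes down to 0.84, and Tagln in all 16. Acta2, smooth muscle actin, rose in mice with ovaries, by 0.68 ± 0.15 (adjusted p = 0.0274, past it in 12 of 16 fits with a library left out), and its log2 difference was 0.43 ± 0.15 (adjusted p = 0.0873) in ovariectomized mice.

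Among 10 TGF-beta ligands, receptors, Smads and targets, 2 rose past the adjusted p in each comparison and none fell, with list medians of 0.23 and 0.18. Tgfb3 rose in both, by 0.56 ± 0.12 (limma adjusted p = 0.0258) and 0.58 ± 0.12 (adjusted p = 0.00747), the first past the adjusted p in 11 of 16 fits with a library left out.

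**Figure D3:**
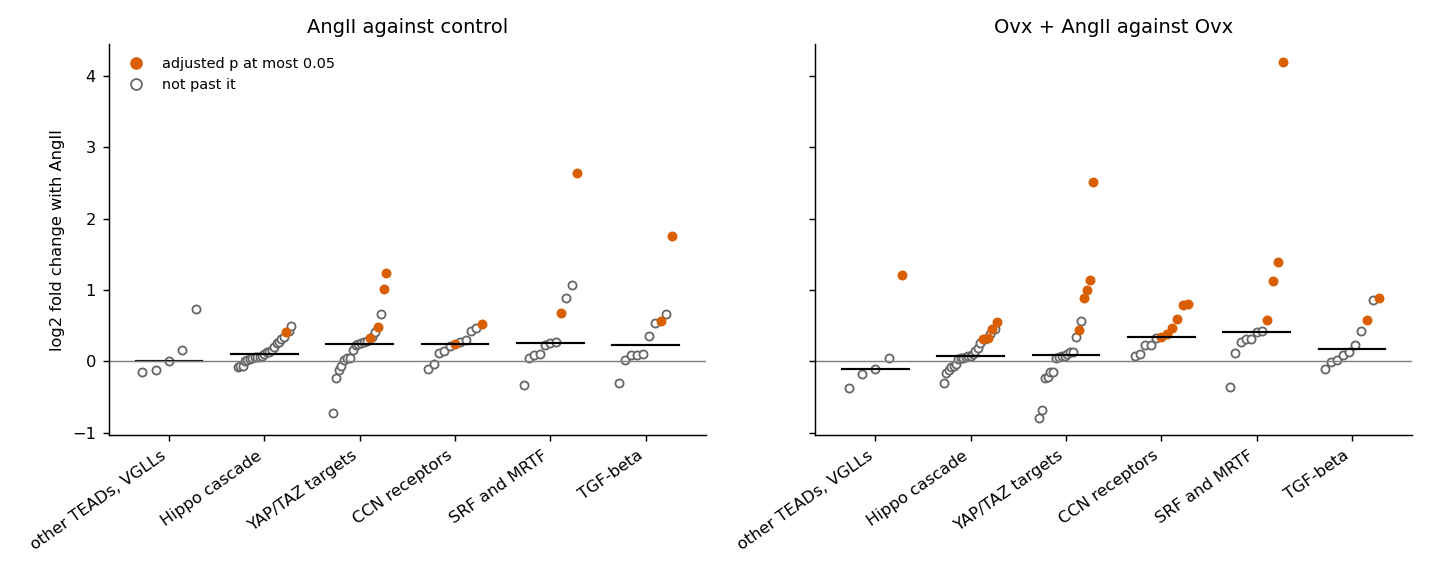
Log2 fold change with AngII (y axis) of each tested gene of the 6 lists in mice with ovaries (left) and ovariectomized mice (right), filled orange where the adjusted p was at most 0.05, with the median of each list as a black line. All filled points lie above 0, and the medians lie between -0.10 and 0.41.

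Markers of other cell types were followed beside these genes. The summed rescaled level of 8 fibroblast markers was 39082 to 49259 in controls and 41207 to 55629 with AngII, and 43730 to 51457 in Ovx mice and 43047 to 55823 in Ovx + AngII mice, so the groups overlapped in both comparisons. Single markers of this list moved in opposite directions. Pcolce and Pi16 rose past the adjusted p in both comparisons, without being called. Scara5 was called lower in ovariectomized mice, by -1.35 ± 0.38 on the log2 scale (limma adjusted p = 0.0332). The sum of 8 smooth muscle and pericyte markers was 12844 to 16108 in controls and 16046 to 20468 with AngII, with only the edges of the ranges touching. In ovariectomized mice it was 13154 to 15048 without AngII and 18887 to 20759 with it, without overlap. Of these 8 markers, 2 rose past the adjusted p in mice with ovaries and 4 in ovariectomized mice, none was called, and none of the 8 was a member of the lists above. The sum of 8 endothelial markers was 33362 to 54409 in controls and 45068 to 52263 with AngII, which overlapped, and 33877 to 36798 in Ovx mice and 37597 to 46150 in Ovx + AngII mice. The sum of 6 atrial cardiomyocyte markers, most of it Nppa, was 675165 to 777611 in controls and 813092 to 1073480 with AngII, and 630958 to 762861 in Ovx and 986866 to 1089090 in Ovx + AngII mice, without overlap in either comparison. The part of these shifts in the values of Ctgf, Wisp2 and the contractile genes was not tested.

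The 8 genes differed in how much they varied between libraries of a group. The SD of log2 values within groups was 0.68 for Cyr61, larger than that of 92.9% of all genes tested, where the median gene had 0.19. Ctgf had 0.46, Wisp2 0.45, Nov 0.38 and Wisp1 0.33. The regulators were tighter, with 0.14 for Wwtr1, 0.13 for Tead1 and 0.07 for Yap1, which only 2.45% of genes fell below. Deviations of the libraries from their group means showed which genes moved together within groups, over the 16 libraries and with no p-value attached. The correlation of these deviations was 0.77 between Ctgf and Wwtr1, 0.70 between Ctgf and Wisp2 and 0.60 between Wisp2 and Wwtr1. It was 0.59 between Cyr61 and Ctgf, and -0.57 between Wisp1 and Wisp2. Ctgf and Tead1 had 0.19 and Ctgf and Yap1 0.36. All genes of a library share its RNA, depth and cell makeup. Ctrl replicate 4 was the highest control for Ctgf, Wisp2 and Wwtr1, and the correlations were not computed without it.

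The genes most like Ctgf were sought among 11997 genes with a mean of at least 50, by the correlation of log2 rescaled values over the 16 libraries, and are a description of these libraries. Among the 5 closest were Mafk, a small Maf transcription factor (r = 0.96 over the libraries and 0.92 for deviations from group means), Bgn, the matrix proteoglycan biglycan (0.95 and 0.88), Zdhhc9, a palmitoyltransferase (0.93 and 0.84), and Cyfip1, a regulator of actin assembly (0.93 and 0.87). Bgn had deposited means of 24468 ± 6254 in controls, 36494 ± 2908 with AngII, 16670 ± 691 in Ovx mice and 29998 ± 3696 in Ovx + AngII mice, the same order of groups as Ctgf. The genes most like Wisp2 were Itgbl1, an integrin beta-like secreted protein (0.97 and 0.73), Fzd1, a Wnt receptor (0.97 and 0.95), Frzb, a secreted Wnt antagonist (0.97 and 0.86), Loxl1, which crosslinks elastic fibres (0.96 and 0.76), and Tmem158 (0.96 and 0.80). Itgbl1 averaged 539 ± 40.04 deposited counts in controls against 1466 ± 376 with AngII. Its means in ovariectomized mice were 356 ± 44.9 without AngII and 1329 ± 310.0 with it. Since these genes were picked for following Ctgf or Wisp2 across the same libraries, no test of their AngII response is given. Ctrl replicate 4 was the highest control for Ctgf, Wisp2 and each gene named here except Tmem158. These correlations were not computed without that library.

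Cyr61 had quite other neighbours. They were Btg2 (r = 0.86 over the libraries and 0.86 for deviations), Fosl2 (0.84 and 0.84), Jun (0.82 and 0.94), Sik1 (0.82 and 0.85) and Nr4a1 (0.82 and 0.85), all genes known for rapid induction by stimuli. Each rested on differences between libraries of the same group. Jun was at 1377, 1053, 2357 and 2011 deposited counts in controls and at 1003, 1566, 1775 and 1131 in Ovx mice, so that the control replicates 3 and 4 and the Ovx replicates 2 and 3 that were high for Cyr61 were high for Jun too. Nr4a1 spanned 228 to 1522 in controls, 322 to 1286 with AngII, 207 to 1571 in Ovx mice and 262 to 851 in Ovx + AngII mice. The log2 fold changes of these 5 genes with AngII were between -0.06 and 0.35 in mice with ovaries and between -0.48 and 0.13 in ovariectomized mice. What set these libraries apart was not tested, as the labels give no time or order of dissection.

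**Figure D4:**
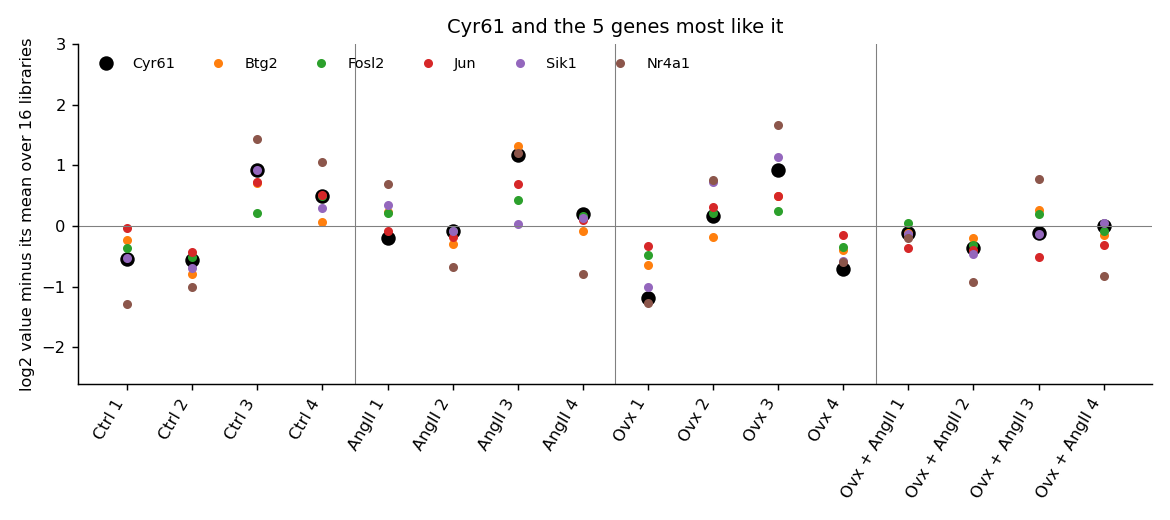
Log2 rescaled value minus its mean over the 16 libraries (y axis) for Cyr61 (large black points) and the 5 genes most like it (small coloured points), library by library, with grey lines between groups. The points are above 0 in Ctrl replicates 3 and 4, AngII replicate 3 and Ovx replicate 3, though barely for Sik1 in AngII replicate 3 and Btg2 in Ctrl replicate 4, and below 0 in Ctrl replicates 1 and 2 and Ovx replicates 1 and 4. Cyr61 spans a smaller range in Ovx + AngII mice.

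Ovariectomy alone was compared with control on rescaled values. Ctgf and Wisp2 were the lowest in Ovx mice relative to controls among the 8 genes. Rescaled Ctgf averaged 14223 ± 7090 in controls and 7509 ± 1742 in Ovx mice, a log2 fold change of -0.82 ± 0.28, or 0.566-fold. Wisp2 averaged 401 ± 167 and 222 ± 72.9, a log2 fold change of -0.81 ± 0.28, or 0.572-fold. The groups overlapped for both genes, and without Ctrl replicate 4, the highest control for each, the log2 fold changes were -0.53 ± 0.24 and -0.56 ± 0.26. Cyr61 had -0.28 ± 0.42, Nov 0.12 ± 0.25 and Wisp1 0.09 ± 0.21. Yap1, Wwtr1 and Tead1 were at -0.08 ± 0.06, -0.06 ± 0.10 and -0.07 ± 0.09.

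None of the 8 genes was called in Ovx against control, nor was any other gene on rescaled values (0% called by limma, 1234 genes at an unadjusted p below 0.05). Groups did not overlap for 0 of the 8 genes, where 2.24% of all genes were lower without overlap. The deposited values of the same genes were lower by the shift between the scales: Ctgf had a log2 fold change of -0.99, Wisp2 -0.97, Yap1 -0.25, Wwtr1 -0.22 and Tead1 -0.23. On that scale 0.224% of all genes were called and 19.4% were lower in Ovx mice without overlap, Yap1 among them as the 1 member.

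**Figure D5:**
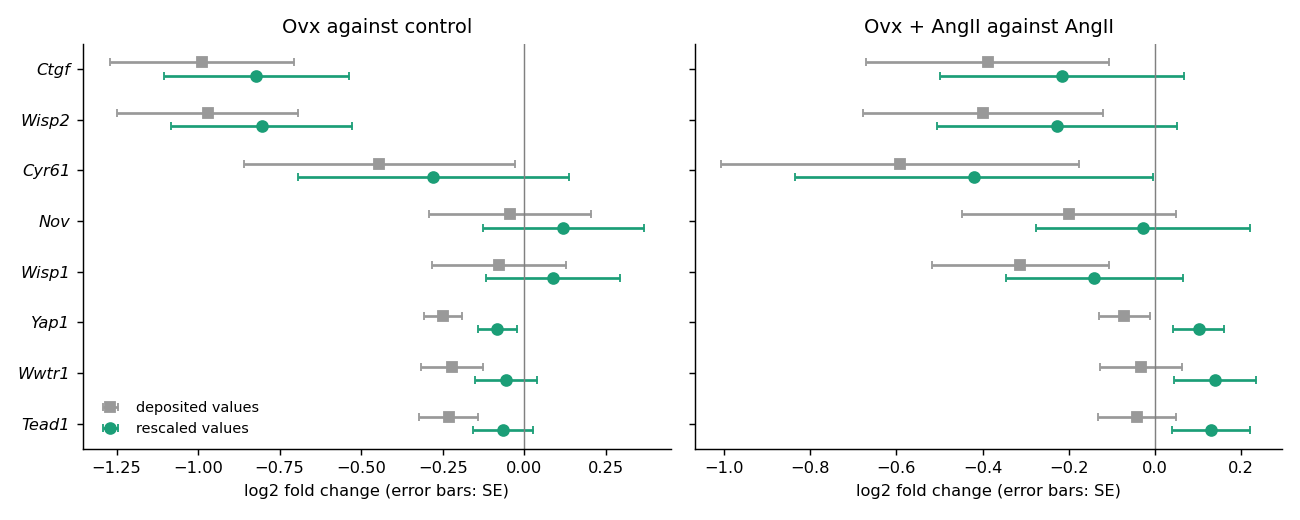
Log2 fold change (x axis, SE as bars) of the 8 genes in Ovx against control (left) and Ovx + AngII against AngII (right), on deposited values (grey squares) and rescaled values (green circles). Rescaling moves every gene to the right by about the same amount, and Yap1, Wwtr1 and Tead1 cross 0 in the right panel.

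Under AngII, no difference between ovariectomized mice and mice with ovaries was detected in the 8 genes. This comparison follows from those in which the values of the 8 genes were already known. Its intervals and adjusted p for them are therefore a description. In Ovx + AngII against AngII on rescaled values, Ctgf had a log2 fold change of -0.22 ± 0.28 (95% interval -0.82 to 0.39) and Wisp2 -0.23 ± 0.28 (-0.82 to 0.36). Cyr61 had -0.42 ± 0.42, Nov -0.03 ± 0.25 and Wisp1 -0.14 ± 0.21. Yap1 had 0.10 ± 0.06, Wwtr1 0.14 ± 0.10 and Tead1 0.13 ± 0.09, and these 3 turned negative on deposited values. The adjusted p of the 8 genes was between 0.842 and 0.992 (limma). No gene was called on rescaled values (0%, with 879 at an unadjusted p below 0.05), and 0.0351% were called on deposited values.

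The last comparison asked whether the AngII response itself differed between mice with and without ovaries. It is the difference between the AngII comparisons above, whose values were known when the 8 genes were chosen. Its intervals and adjusted p for these genes are therefore a description. The response in ovariectomized mice exceeded that in mice with ovaries by 0.60 ± 0.40 on the log2 scale for Ctgf (95% interval -0.25 to 1.45) and by 0.57 ± 0.39 for Wisp2 (-0.26 to 1.41). Without Ctrl replicate 4 these differences were 0.31 ± 0.33 and 0.33 ± 0.35. Yap1 had 0.18 ± 0.08 (0.00040 to 0.36), Wwtr1 0.19 ± 0.13 and Tead1 0.19 ± 0.13. Cyr61, Nov and Wisp1 had -0.15 ± 0.59, -0.15 ± 0.35 and -0.24 ± 0.29. The adjusted p of the 8 genes was between 0.839 and 0.985, and no gene of the table was called (0% by limma, with 826 at an unadjusted p below 0.05). The larger fold changes of Ctgf, Wisp2 and Wwtr1 in ovariectomized mice did not differ detectably from those in mice with ovaries at 4 libraries a group.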

How the data were processed

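RNA from the whole LA was sequenced from Illumina Stranded mRNA libraries. Per the labels and the study's methods, the authors used STAR for alignment to mm10, Salmon for quantification and DESeq2 in BaseSpace for normalisation; versions are not given in the sources used here. The unit of the deposited values is a signal, namely the count of a gene over the size factor of its library. Between 77.4% and 91.0% of low values lay within 0.1 of whole multiples of 1 read (0.777 to 1.16), so whole reads were not recovered and tests made for raw counts were not applied. By these steps an estimated 15972695 to 25215639 reads per library were counted in genes. This is not the sequencing depth, which the study's methods give as higher. Groups came from the sample labels, and replicates were numbered in accession order.

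The 8 members and the lists were chosen with earlier results of these data known. Tests used log2(value + 1), which understates the fold changes of low genes. Genes with a mean of at least 10 were tested (14261 of 24972 rows; 14 rows whose symbols had turned into dates, 0.0721% of all values, were left out). One model with 4 group means was fitted to 16 libraries with limma 3.58.1 in R 4.3.3 (mean trend, two-sided, Benjamini-Hochberg adjustment over all genes), with the thresholds of the study's methods, an adjusted p of 0.05 and a log2 fold change of 1. The fit was checked on simulated data. Median-of-ratios factors were 1.05 to 1.06 in Ctrl and AngII libraries and 0.941 to 0.946 in the others, or -0.17 on the log2 scale. Besides the 8 members, the text names up to 4 genes per list past the adjusted p in either AngII comparison, with Tead2, Tead3, Tead4, Lats1, Lats2 and Ankrd1, and the 5 genes most like Ctgf, Wisp2 and Cyr61; a few genes that met these rules are not reported here. Alternatives were pseudocounts of 0.5 and 5, no filter or a mean of at least 50, upper-quartile and median-of-ratios rescaling, a fit of only the libraries compared, array weights, the adjusted p alone for the lists, and each library left out. Levels per kilobase used merged exons of GENCODE M21. Reads of overlapping genes could not be reassigned.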

Additional observations from a re-analysis of the deposited data

Results flagged for a closer look

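Ctgf in AngII replicate 3 lay far from the other libraries of its group, with 32423 normalised counts against 19503 to 20510 in replicates 1, 2 and 4. The gap was 0.922 of the range of the group. It was the 1 group past the limit among the 32 groups of 4 libraries examined for the 8 genes, and chance alone passes it in about 1 group in 20. Cyr61 was also highest in AngII replicate 3, with 1645 normalised counts.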

How the results depend on the processing

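With 4 libraries a group, 1 library moved several values. In AngII against control 1 member was called, 0 in a fit of only those 8 libraries, 2 with array weights and 1 to 2 with a library left out, the 2 being without Ctrl replicate 4. List genes called there numbered 4, but 11 at the adjusted p alone, 2 with no filter, 0 in a fit of only those 8 libraries and 0 to 4 with a library left out, with 0 when Ctrl replicate 1, Ctrl replicate 2, AngII replicate 1 or AngII replicate 3 was the one missing. In Ovx + AngII against Ovx they numbered 7, and 21 at the adjusted p alone. In Ovx against control they numbered 0, and 1 on deposited values. Over all genes, the main fit of AngII against control called 0.344% higher and 0.238% lower, and 1.55% were called without Ctrl replicate 4. Shares under the other settings are not reported here, so counts under them are only a description. Deposited values turned Ovx + AngII against AngII to -0.070 for Yap1, -0.033 for Wwtr1 and -0.042 for Tead1, and moved Ovx against control to -0.25, -0.22 and -0.23. With a library left out, Ovx + AngII against AngII ran from -0.25 to 0.11 for Nov and from -0.32 to 0.043 for Wisp1, and the difference between AngII responses from -0.47 to 0.23 for Cyr61 and from -0.37 to 0.0023 for Nov. The cause was not tested. For single members, 306 values under other settings and 631 with a library left out either kept their direction, where a test was made, or moved by less than the spread between replicates. Described values near 0 could cross it, as Cyr61 in AngII against control did (-0.10 to 0.48). No paired analysis was possible because the labels give no shared replicate numbers.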
